A study of Mus musculus with 8 samples.

Results

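Hepatocytes make most of the proteins that circulate in plasma for the acute phase response, for complement and for clotting. The 43 genes described here were listed by name: 16 of acute phase proteins and their plasma relatives, 12 of complement and 15 of clotting. The array gave 40 of the 43, among 22180 genes tested, as a probe set annotated to that gene alone: 15 acute phase, 10 complement and 15 clotting genes. Saa1 and Masp2 were annotated only on probe sets that carry a second gene's symbol as well, so they were not used here. No probe set in the platform annotation used here named C3. No filter on low values was set, so all 40 were tested.

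The arrays profiled total RNA of livers from C57BL/6N mice of 27 days of age, 1 array per mouse. In the 4 knockout mice (genotype Albumin-Cretg/wt:Sco1fl/fl) Cre under the albumin promoter deletes Sco1, a mitochondrial copper chaperone for cytochrome c oxidase, in hepatocytes. The state of the gene in other liver cells is not known here. The 4 mice called wild-type all carried at least 1 floxed allele: wild-type mice 1 and 3 were Albumin-Cretg/wt:Sco1fl/wt by the genotype label, and wild-type mice 2 and 4 were Albumin-Crewt/wt:Sco1fl/fl, although the titles give a single genotype for all 4. The comparison asks whether the genes of these secreted proteins differ in level when hepatocytes lack Sco1. In whole liver RNA, fewer cells of a type and less RNA per cell cannot be told apart.

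In the acute phase response, cytokines, chiefly interleukin 6 acting through STAT3 and interleukin 1 acting through NF-κB and C/EBP factors, raise hepatocyte transcription of proteins such as serum amyloid A, haptoglobin and fibrinogen. Complement is a plasma protease cascade that starts from lectins, antibodies or spontaneous C3 turnover and ends in the membrane attack complex. The clotting cascade converts prothrombin to thrombin, which cuts fibrinogen to fibrin, and several of its factors need vitamin K-dependent carboxylation in the hepatocyte before secretion.

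Regulatory sequence upstream of 4 of these genes, picked by hand, is shown. Lcn2 and Apcs had the largest positive differences, and Saa2 and C9 were among the genes that varied most between knockout mice. C6 is not shown, although its SD among knockout mice was 0.52 against 0.32 for C9. No match to either motif below was found for C6, C8g, Mbl2 or Itih1, so the 4 do not stand for the other genes. Each stretch holds the 250 bases before the annotated start (RefSeq, GRCm38.p6), 5′ to 3′ on the gene's strand. Capitals mark matches to the C/EBP motif TTGCNNAA or the STAT motif TTCNNNGAA, searched on both strands.
Lcn2, chr2:32387740-32387989, minus strand: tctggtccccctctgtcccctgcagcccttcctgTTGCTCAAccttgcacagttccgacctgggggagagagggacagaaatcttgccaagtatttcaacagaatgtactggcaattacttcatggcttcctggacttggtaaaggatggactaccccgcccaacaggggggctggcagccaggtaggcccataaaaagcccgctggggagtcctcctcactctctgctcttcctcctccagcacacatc
Apcs, chr1:172895055-172895304, minus strand: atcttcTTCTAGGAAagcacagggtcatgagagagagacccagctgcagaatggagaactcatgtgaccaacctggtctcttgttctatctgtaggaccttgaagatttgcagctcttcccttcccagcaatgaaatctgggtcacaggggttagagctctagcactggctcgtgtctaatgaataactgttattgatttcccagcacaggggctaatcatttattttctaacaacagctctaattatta
Saa2, chr7:46751583-46751832, plus strand: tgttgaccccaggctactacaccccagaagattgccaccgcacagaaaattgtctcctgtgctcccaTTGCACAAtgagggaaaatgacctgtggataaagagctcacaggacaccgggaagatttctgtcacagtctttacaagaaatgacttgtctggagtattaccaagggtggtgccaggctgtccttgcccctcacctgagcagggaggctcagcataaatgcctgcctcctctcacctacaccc
C9, chr15:6445096-6445345, plus strand: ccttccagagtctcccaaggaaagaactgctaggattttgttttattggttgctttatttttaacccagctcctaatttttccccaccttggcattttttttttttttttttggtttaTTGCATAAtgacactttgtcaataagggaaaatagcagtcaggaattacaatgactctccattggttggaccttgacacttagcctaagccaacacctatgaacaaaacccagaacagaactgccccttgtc
The capitals are a C/EBP match in Lcn2, Saa2 and C9 and a STAT match in Apcs. Of the 43 genes, 35 had a promoter entry of 300 bases (250 before and 50 after the start), 36 entries in all because C8g had 2. The C/EBP motif was in 15 of the 36, or 41.7%, against 10.8% of all 32851 promoter entries. It was in the entries of all 4 serum amyloid A genes, Orm2, Lcn2, Fga, Fgb, Itih2, Serpinc1, F9, F11, C9, Ahsg and C3. The STAT motif was in 7 of the 36, or 19.4%, against 8.3% of all entries: those of Apcs, Fga, Fgb, Itih4, C8a, F9 and Masp2. Each printed stretch holds 1 match. A match describes the letters only, and no binding was measured.

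None of the 40 genes passed the threshold, an adjusted p under 0.05 in limma, with Benjamini-Hochberg adjustment across the 22180 genes tested. Of all genes 1.15% did, 0.433% as higher and 0.717% as lower in the knockout. At an unadjusted p under 0.05 there were 9 of 40, or 22.5%, against 16.7% of all genes. Of these 9, 3 were higher and 6 lower in the knockout, where 8.61% of all genes were higher and 8.06% lower at that p. By class the 9 were 7 of 15 acute phase genes (3 higher and 4 lower), 2 of 10 complement genes and 0 of 15 clotting genes. Values are log2 units of the deposited array values, and every difference is knockout minus wild-type with its limma standard error. Most differences were small and negative: 34 of the 40 were below 0, against 42.8% of all genes, with a median of -0.089 beside 0.027 over all genes. The 6 on the positive side were Lcn2, Apcs, Crp, F5, C8a and Masp1. For 36 of the 40 the 95% interval of the difference lay wholly between -0.5 and 0.5, and the 4 whose interval reached past either bound were Lcn2, Apcs, Saa2 and C6.

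**Figure D1:**
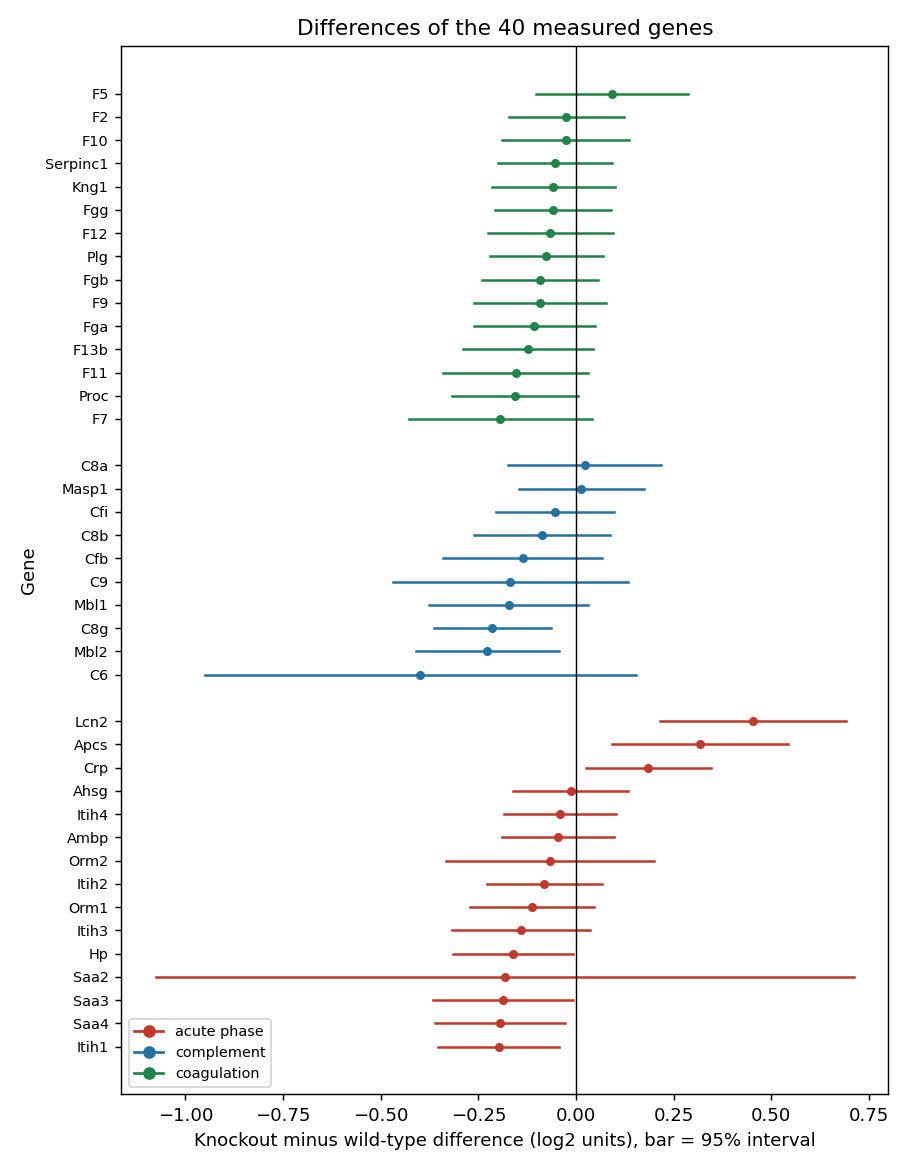
Difference between knockout and wild-type livers (x axis, log2 units) for each of the 40 measured genes (y axis), as points with 95% intervals (limma, 4 mice per group), in blocks of acute phase, complement and coagulation genes. The points lie between -0.40 for C6 and 0.45 for Lcn2, and 34 are left of 0.

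Sco1 itself, as a check of the labels, read 7.48, 7.62, 7.72 and 7.56 in the knockout mice and 7.84, 7.93, 8.19 and 8.04 in the controls, a difference of -0.41 ± 0.093 (limma adjusted p = 0.0633), with no knockout value above a control value. Whether its probes lie in the deleted part is not known here. The array medians lay between 5.79 and 5.89. Arrays correlated across genes at 0.9915 or more within the knockout group and at 0.9939 or more within the wild-type group. The labels gave no sex, litter or scan date. The summed linear value of 3 Y-linked genes was 495 in knockout mouse 4 and 1169 to 1402 in the other arrays, and without that mouse again none of the 40 genes passed and 35 were below 0. Hepatocyte markers were close between groups: 10 of 10 were measured, none passed (1 at an unadjusted p under 0.05), their median difference was -0.024, and their summed linear values were 93028 to 94711 in the knockout group and 92950 to 95260 in the controls. Alb and Ttr stand in both this list and that of plasma carriers.

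Acute phase genes had 12 of 15 differences below 0, against 42.8% of all genes, with a median of -0.081. The groups did not overlap for 9 of the 15, or 60%. That share was 10.7% over all genes and 21.1% over genes with a mean above 11, where 11 of the 15 lie. Lcn2, the siderophore-binding lipocalin 2 of the acute phase, had the largest difference of the 40. It was measured at 9.06, 9.48, 9.39 and 9.02 in knockout mice 1 to 4 and at 8.76, 8.81, 8.73 and 8.83 in wild-type mice 1 to 4. All 4 knockout livers were above all 4 wild-type livers, with mice 2 and 3 highest. The difference of 0.45 ± 0.11 is 1.37-fold, with a 95% interval of 0.22 to 0.69 log2 units. Its adjusted p of 0.0713 missed the threshold (limma). Of 21 alternative settings 3 passed. The adjusted p was 0.0404 to 0.303 (limma) in all of them but 1. That setting asks for a change beyond 1.2-fold, and Lcn2 did not pass there. Neutrophils and macrophages also make Lcn2. Of 12 neutrophil markers 10 had positive differences and none passed (2 at an unadjusted p under 0.05). Over all genes 12676 of 22180 differences were positive and 16.7% of genes reached that p. Summed linear values of the neutrophil markers were 561 to 668 in the knockout group and 529 to 599 in the controls. These markers were dim, with a median level of 5.38 and none above 6.58, beside array medians of 5.79 to 5.89. Ly6g stood at -0.31 ± 0.12 and Ltf at 0.26 ± 0.12. Of 12 Kupffer cell and macrophage markers 11 had positive differences and none passed (2 at an unadjusted p under 0.05), with sums of 8731 to 11802 and 7979 to 10836. The part of these cells in the Lcn2 value was not tested.

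The pentraxins Apcs (serum amyloid P, a major acute phase protein of the mouse) and Crp (C-reactive protein, which varies little in the mouse), which bind ligands on microbes and dying cells, were the other positive differences among acute phase genes. Apcs was measured at 11.24, 11.39, 11.52 and 11.66 in the knockout mice and at 11.07, 11.30, 11.15 and 11.02 in the wild-type mice. Knockout mouse 1 lay below wild-type mouse 2, so the groups overlapped, and the difference was 0.32 ± 0.10 or 1.25-fold (limma adjusted p = 0.164). Crp lay between 13.16 and 13.26 in the knockout livers and between 12.91 and 13.09 in the wild-type livers, without overlap. Its difference was 0.18 ± 0.073 (limma adjusted p = 0.238). Crp and Apcs are next to each other on chromosome 1, with no protein-coding gene between them in RefSeq.

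Serum amyloid A proteins are high-density lipoprotein-bound reactants, of which Saa1 and Saa2 are the strongly induced hepatic forms, Saa3 is made largely outside hepatocytes and Saa4 is constitutive. Their 3 measured genes all had differences below 0. Saa2 was measured at 7.51, 9.18, 8.97 and 9.96 in knockout mice 1 to 4 and at 8.84, 9.59, 9.14 and 8.78 in wild-type mice 1 to 4. The knockout values spread over far more than the wild-type ones, with an SD of 1.02 against 0.37, mouse 1 being the lowest and mouse 4 the highest of all 8 livers. The difference was -0.18 ± 0.41 with a 95% interval of -1.07 to 0.71, so neither a fall nor a rise of this gene could be told at this spread. Without knockout mouse 1 it was 0.28 (limma adjusted p = 0.626). Saa2 has near-identical relatives, Saa1 above all, and its probe set may read them.

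Saa4 was measured at 12.40, 12.25, 12.32 and 12.20 in the knockout mice and at 12.43, 12.56, 12.45 and 12.52 in the wild-type mice. The groups did not overlap, by a margin of a few hundredths of a unit. Its difference was -0.19 ± 0.076 (limma adjusted p = 0.237), and that of Saa3 was -0.19 ± 0.081 (adjusted p = 0.28), also without overlap.

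Haptoglobin, the orosomucoids and fetuin A did not pass the threshold. Haptoglobin, Hp, which binds free haemoglobin, stood at -0.16 ± 0.070 with a 95% interval of -0.32 to -0.0071, and the plasma carrier orosomucoid Orm1 at -0.11 ± 0.072 with an interval of -0.27 to 0.045 (limma adjusted p of 0.28 and 0.457). The upper ends of these intervals correspond to 0.995 and 1.03 times the wild-type array value. Orm2 was measured at 10.04, 9.74, 9.38 and 9.64 in the knockout mice and at 9.69, 9.82, 9.82 and 9.73 in the wild-type mice. Knockout mouse 1 was the highest and knockout mouse 3 the lowest of the 8 livers, and the wild-type values lay close together between them. Its difference was -0.066 ± 0.12, and 0.040 without knockout mouse 3 (limma adjusted p = 0.890). Fetuin A, Ahsg, a calcification inhibitor that falls in human inflammation, stood at -0.013 ± 0.067, with a knockout mean of 13.71 and a wild-type mean of 13.72. Its 95% interval was -0.16 to 0.13. The Ahsg probe set lay near the highest array value, 13.88, and that of Hp averaged 12.97. Whether bright probe sets understate a change was not tested.

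The inter-alpha-trypsin inhibitors are plasma protease inhibitors with heavy chains, encoded by the Itih genes, and a light chain, bikunin, encoded by Ambp. All 5 measured genes had differences below 0, and 3 of them did not overlap between groups, against 10.7% of all genes and 22.1% of genes with a mean above 12, where all 5 lie. Itih1 was measured at 12.16, 12.30, 12.29 and 12.17 in the knockout mice and at 12.43, 12.41, 12.43 and 12.43 in the wild-type mice. The wild-type values were almost equal, and every knockout liver lay below them. The difference was -0.20 ± 0.071 (limma adjusted p = 0.2). Itih3, which is adjacent to Itih1 on chromosome 14, stood at -0.14 ± 0.080, Itih2 at -0.081 ± 0.067, Ambp at -0.046 ± 0.065, and Itih4, the acute phase member, at -0.041 ± 0.065.

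**Figure D2:**
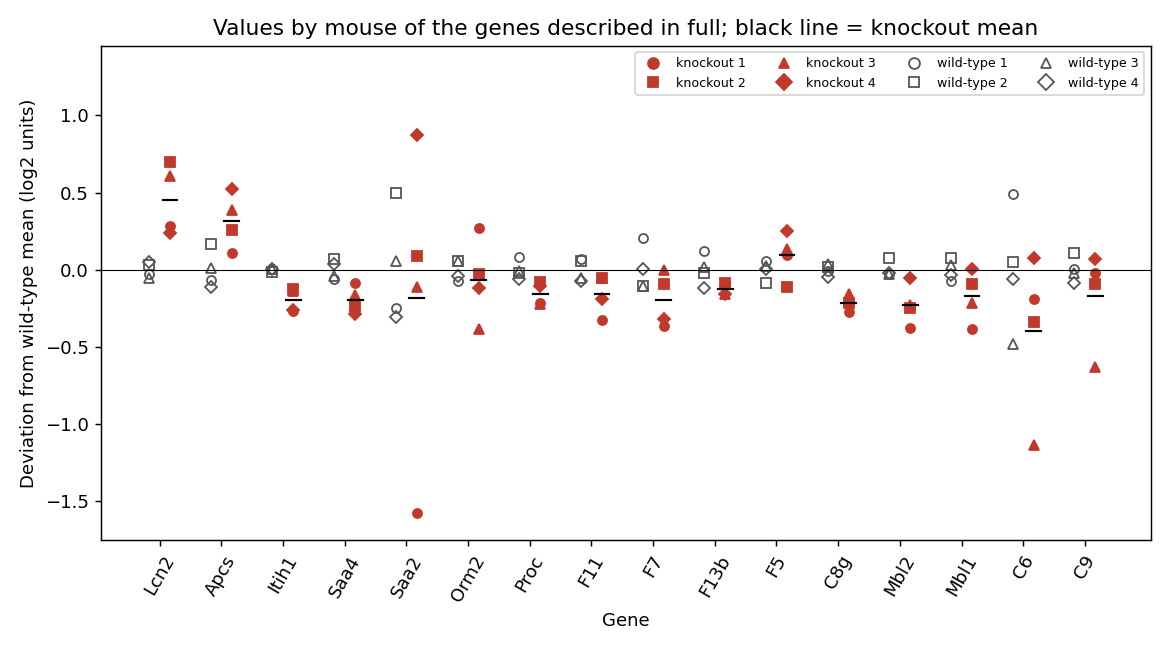
Deviation of each mouse from the wild-type mean (y axis, log2 units) for the 16 genes of these classes whose values are given mouse by mouse (x axis); filled symbols are knockout mice, open symbols wild-type mice, and symbol shape is the mouse number. Saa2, at 7.51 in knockout mouse 1 and 9.96 in knockout mouse 4, has the widest range, and C6 and C9 have knockout mouse 3 as their lowest value, while Itih1 and C8g separate the groups with little spread.

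Complement genes had 8 of 10 differences below 0, a median of -0.15, and 2 that did not overlap between groups, or 20%. That share was 10.7% over all genes and 21.1% over genes with a mean above 11, where 8 of the 10 lie. Differences were below 0 for 42.8% of all genes and 59.2% of those with a mean above 11. The median difference of the complement genes was -0.091 without knockout mouse 1 and -0.090 without knockout mouse 3. It was -0.18 without knockout mouse 2, -0.20 without knockout mouse 4 and -0.21 with the Y-linked level as a covariate. The mannose-binding lectins start the lectin pathway by binding sugars on microbes. Mbl2 was measured at 9.93, 10.06, 10.08 and 10.25 in the knockout mice and at 10.28, 10.38, 10.27 and 10.28 in the wild-type mice, every knockout value being lower. The difference was -0.23 ± 0.083 (limma adjusted p = 0.208). Mbl1 was measured at 11.38, 11.66, 11.55 and 11.76 and at 11.69, 11.84, 11.79 and 11.73, with overlap through knockout mouse 4, and its difference was -0.17 ± 0.093 (adjusted p = 0.377). Both lectin genes were lowest in knockout mouse 1 and highest within the knockout group in mouse 4. Masp1, a protease that the lectins activate, stood at 0.014 ± 0.073, Cfb, the protease of the alternative pathway, at -0.14 ± 0.093, and Cfi, which inactivates C3b, at -0.054 ± 0.069, with adjusted p of 0.487 or more.

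The membrane attack complex is built from C5b, C6, C7, C8 and several copies of C9, and C8 has the chains C8a, C8b and C8g. C8g, the gamma chain, a lipocalin, had the smallest p of the complement genes. It was measured at 11.85, 11.91, 11.96 and 11.91 in the knockout mice and at 12.11, 12.14, 12.16 and 12.08 in the wild-type mice. No knockout liver exceeded 11.96, and no wild-type liver was under 12.08. Its difference of -0.21 ± 0.068 corresponds to 86.2% of the wild-type level (limma adjusted p = 0.16). It passed in none of 21 alternative settings. The adjusted p was 0.0560 to 0.436 (limma) in all but the setting that asks for a change beyond 1.2-fold. The alpha and beta chains were at 0.022 ± 0.089 and -0.086 ± 0.079, both with overlap.

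C6 and C9 varied between mice more than between groups. C6 was measured at 9.47, 9.32, 8.52 and 9.73 in knockout mice 1 to 4 and at 10.15, 9.71, 9.18 and 9.60 in wild-type mice 1 to 4. Mouse 3 was the lowest of each group, and the groups overlapped. The difference was -0.40 ± 0.25 with a 95% interval of -0.95 to 0.15 (limma adjusted p = 0.451), and -0.15 without knockout mouse 3 (adjusted p = 0.751). C9 was measured at 12.21, 12.13, 11.60 and 12.30 and at 12.23, 12.33, 12.21 and 12.14, knockout mouse 3 standing far below the other 7 livers. Its difference was -0.17 ± 0.14 (limma adjusted p = 0.564), and -0.014 without that mouse (adjusted p = 0.956). Knockout mouse 3 also had the lowest value of all 8 livers for C8a and C8b, at 11.91 and 12.66, but the highest knockout value for C8g. Over the 5 genes its mean deviation from the wild-type mean was -0.47, against -0.12 to 0.024 in the other knockout mice and -0.075 to 0.076 in the wild-type mice.

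**Figure D3:**
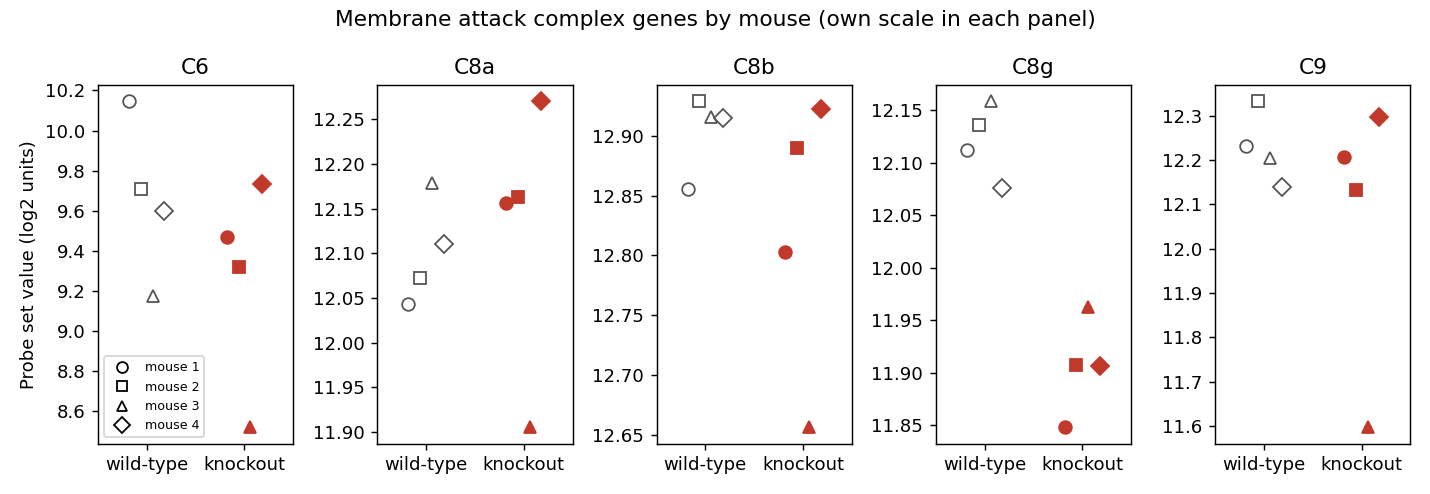
Probe set values (y axis, log2 units, a separate scale in each panel) of the 5 measured membrane attack complex genes in wild-type (open) and knockout (filled) livers; symbol shape is the mouse number. C8g has all 4 knockout mice at 11.96 or below and all 4 wild-type mice at 12.08 or above, whereas C6, C8a, C8b and C9 overlap and have knockout mouse 3 lowest.

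Clotting genes were the most even of the classes: 14 of 15 differences were below 0, all 15 lay between -0.19 and 0.093, none passed, and none reached an unadjusted p under 0.05 (limma). Of all genes 42.8% were below 0, and 60.1% of those with a mean above 12, where 11 of the 15 lie. The groups did not overlap for 5 of the 15, or 33.3%, against 10.7% of all genes and 22.1% of those with a mean above 12. The 3 fibrinogen chains, adjacent on chromosome 3 and acute phase reactants as well as clotting proteins, stood at -0.11 ± 0.070 for Fga, -0.091 ± 0.068 for Fgb and -0.059 ± 0.068 for Fgg. The upper ends of their 95% intervals correspond to 1.03, 1.04 and 1.06 times the wild-type array value. Mean values of the 3 chains were 12.89, 13.37 and 13.47, near the highest array value, 13.88. Whether such bright probe sets understate a rise was not tested.

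Among the vitamin K-dependent genes all 5 measured differences were below 0. Proc, the anticoagulant protein C zymogen, was measured at 11.92, 12.05, 11.91 and 12.03 in the knockout mice and at 12.22, 12.11, 12.13 and 12.08 in the wild-type mice, without overlap. Its difference was -0.16 ± 0.073 (limma adjusted p = 0.316). F7, which starts the extrinsic pathway with tissue factor, was measured at 10.25, 10.52, 10.62 and 10.30 and at 10.82, 10.51, 10.51 and 10.62. Knockout mice 1 and 4 were the lowest 2 of the 8 livers, mice 2 and 3 lay within the wild-type range, and the difference was -0.19 ± 0.11 (adjusted p = 0.388). F9 stood at -0.092 ± 0.077, prothrombin F2 at -0.025 ± 0.067 and F10 at -0.026 ± 0.074.

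F11 of the intrinsic pathway was measured at 10.52, 10.79, 10.79 and 10.66 in the knockout mice and at 10.92, 10.90, 10.79 and 10.77 in the wild-type mice, a difference of -0.15 ± 0.085 (limma adjusted p = 0.386). F13b, the carrier subunit of the factor that cross-links fibrin, was measured at 11.33, 11.34, 11.27 and 11.27 and at 11.55, 11.41, 11.45 and 11.31, a difference of -0.12 ± 0.076 (adjusted p = 0.442). Both genes overlapped between groups. F5, the cofactor of the prothrombin-cleaving complex, was the single clotting gene on the positive side, at 12.25, 12.05, 12.29 and 12.41 against 12.21, 12.07, 12.18 and 12.16, a difference of 0.093 ± 0.088 (adjusted p = 0.626). F12 and kininogen, Kng1, which act in contact activation, stood at -0.065 ± 0.073 and -0.058 ± 0.072, plasminogen, Plg, the zymogen that dissolves fibrin, at -0.076 ± 0.066, and antithrombin, Serpinc1, at -0.053 ± 0.067.

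The groups did not overlap for 16 of the 40 genes, or 40%, against 10.7% of all genes. In 2 of them, Lcn2 and Crp, all knockout values were above, as in 5.26% of all genes, and in 14 all were below, as in 5.49%. Among the 331 genes with a mean above 12, 22.1% did not overlap between groups, 60.1% of differences were below 0 and 0.906% passed the threshold. Of the 27 genes described here with a mean above 12, 13 did not overlap and 24 differences were below 0, with a median of -0.076 beside -0.030 over the 331. The values of such genes spread little, with a median SD of 0.076 within knockout and 0.054 within wild-type arrays over the 331, so that groups can separate over small distances. The place of the brightness of the probe sets in these counts was not tested.

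**Figure D4:**
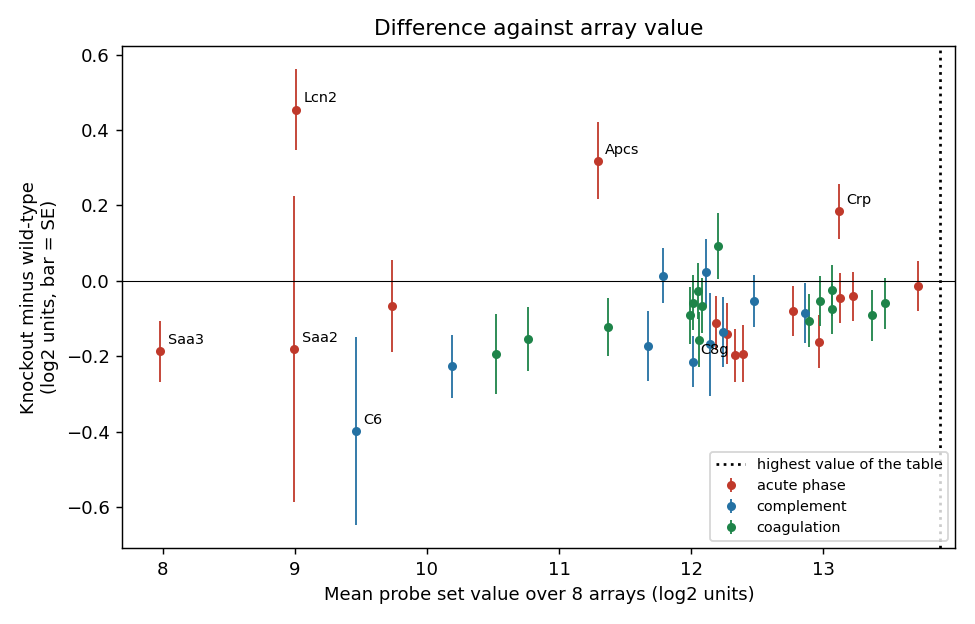
Difference between knockout and wild-type livers (y axis, log2 units, bars are limma standard errors) against the mean probe set value over the 8 arrays (x axis, log2 units) for the 40 genes, coloured by class; the dotted line is the highest value of the table, 13.88. Of the 40, 27 lie above 12, and the larger differences, Lcn2, Apcs and C6, belong to probe sets below that.

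The spread among knockout mice exceeded that among wild-type mice for 30 of the 40 genes, against 58.8% of all genes and 69.2% of those with a mean above 12. By class it was 12 of 15 acute phase, 9 of 10 complement and 9 of 15 clotting genes. Averaged over the 10 complement genes, knockout mouse 3 deviated from the wild-type mean by -0.29, mouse 1 by -0.17, mouse 2 by -0.12 and mouse 4 by 0.0063, with wild-type mice at -0.034 to 0.043. Over the 15 acute phase genes knockout mouse 1 was the lowest at -0.14, and the other 3 knockout mice, at -0.025 to 0.023, lay within the wild-type range of -0.042 to 0.065. In that mouse Saa2 was far below its wild-type mean of 9.09, and the median deviation over the 15 genes, which a single gene moves little, gave another order: -0.048, -0.029, -0.087 and -0.059 in knockout mice 1 to 4, all below the wild-type mice at -0.024 to 0.030. Over the 15 clotting genes all 4 knockout mice, at -0.11 to -0.062, were below the wild-type mice, at -0.036 to 0.030. Over all 22180 genes the same mean was 0.0078 to 0.023 in knockout mice and -0.0097 to 0.0092 in wild-type mice. Those genes are mostly dimmer, with a median level of 6.51 against 12.16 for the 40 genes. Genes with a mean above 12 had a median difference of -0.030, and no mean by mouse was taken over them.

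**Figure D5:**
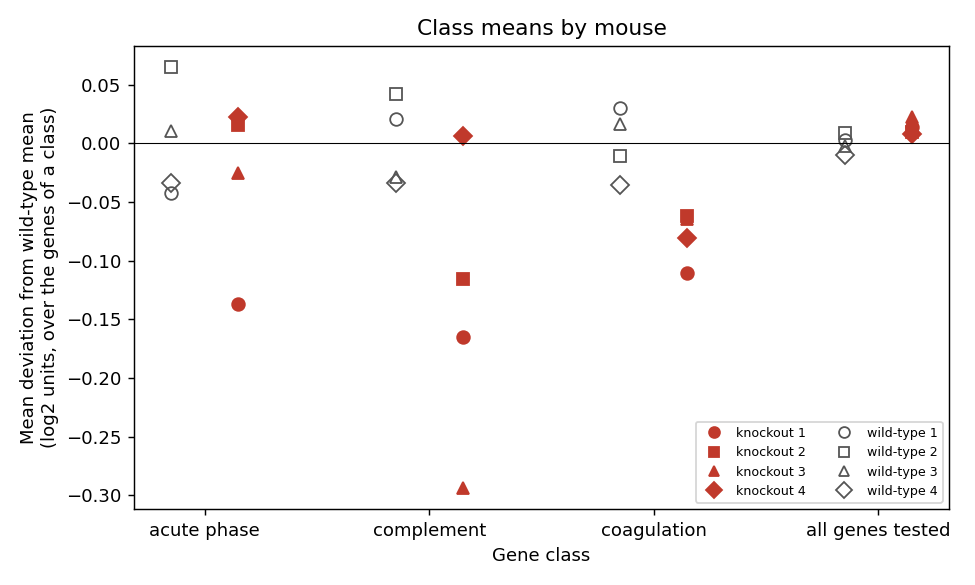
Mean deviation from the wild-type mean (y axis, log2 units) by mouse, for the 15 acute phase, 10 complement and 15 clotting genes and for all 22180 genes (x axis); filled symbols are knockout and open symbols wild-type mice, with shape giving the mouse number. Clotting genes lie between -0.11 and -0.062 in the knockout mice, and the complement mean ranges from -0.29 in mouse 3 to 0.0063 in mouse 4. The set of all genes has a median level of 6.51, against 12.16 for the 40 genes.

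Set against each class of control separately, the genes gave similar counts. Against the 2 Cre-free controls 33 of 40 differences were below 0, where 9771 of all 22180 genes were. None passed (4 at an unadjusted p under 0.05), where 0.212% of all genes passed. Against the 2 controls with Cre and 1 floxed allele 35 were below 0, where 9893 of all 22180 genes were. None passed (4 at an unadjusted p under 0.05), where 0.131% of all genes passed (limma with Benjamini-Hochberg adjustment). The share of all genes at that unadjusted p was not counted for either contrast. Lcn2 stood at 0.41 and 0.49 in these contrasts, and C8g at -0.20 and -0.23. Both contrasts share the knockout mice. Between the control classes themselves 25 genes were higher and 15 lower with Cre, none reached an unadjusted p under 0.05, against 3.03% of all genes, and the median difference was 0.010. Of the 15 clotting genes 14 were higher with Cre, with a median difference of 0.036, where 11101 of all 22180 genes were higher. The median of the clotting genes in the knockout was -0.053 against the Cre-free controls and -0.088 against the controls with Cre, and 14 of 15 were below 0 in each. F13b stood at -0.052 and -0.19.

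Genes upstream of the acute phase response were listed for comparison. Of 19 measured signalling genes none passed, none was higher and 2, or 10.5%, were lower at an unadjusted p under 0.05 (limma). At that p 8.06% of all genes were lower. Of the 19 differences 8 were above 0 and 11 below, with a median of -0.076. The 2 lower ones were the cytokine Il18, at -0.26 ± 0.099 (adjusted p = 0.226), and Stat3, which carries the interleukin 6 signal. Stat3 was measured at 11.16, 11.39, 11.34 and 11.31 in the knockout mice and at 11.40, 11.62, 11.53 and 11.41 in the wild-type mice, without overlap, a difference of -0.19 ± 0.083 (adjusted p = 0.271). The 19 differences ran from -0.26 ± 0.20 for Il1b, a cytokine, to 0.28 ± 0.14 for Il1rn, the interleukin 1 receptor antagonist (adjusted p of 0.546 and 0.352). Of 10 liver transcription factors none passed or reached an unadjusted p under 0.05, with Prox1 at -0.17 ± 0.082 and Nr5a2 at -0.17 ± 0.12. Il1b and Il1rn were named as the ends of the range after their values were seen.

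Of 20 other measured acute phase and plasma carrier genes 17 had differences below 0, with a median of -0.088. None passed, none was higher and 6, or 30%, were lower at an unadjusted p under 0.05 (limma). At that p 8.06% of all genes were lower, and 10.3% of those with a mean above 12, where 14 of the 20 lie. The metalloreductase Steap4 was measured at 10.03, 10.29, 10.15 and 10.13 in the knockout mice and at 10.57, 10.61, 10.64 and 10.41 in the wild-type mice, a difference of -0.41 ± 0.085 (adjusted p = 0.0503). Fgl1, a fibrinogen-like protein secreted by hepatocytes, was measured at 11.05, 11.53, 11.16 and 11.47 and at 11.56, 11.93, 11.85 and 11.67, a difference of -0.45 ± 0.12 (adjusted p = 0.11). Neither gene overlapped between groups.

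Of 25 other complement genes 10 were below 0 and 15 above, with a median of 0.019. None passed, and 1 was higher and 5, or 20%, were lower at an unadjusted p under 0.05 (limma), where 8.06% of all genes were lower. C4bp, which restrains the classical pathway, stood at -0.22 ± 0.079 (adjusted p = 0.2), without overlap. C1qc, a chain of C1q and a product of macrophages, stood at 0.26 ± 0.095 (adjusted p = 0.209), on the opposite side. Of the macrophage markers given above, Cd68 stood at 0.36 ± 0.093 and Ly6c2 at 0.41 ± 0.16, and their part in the C1qc value was not tested.

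Of 26 other clotting, fibrinolysis and vitamin K genes 17 were below 0, with a median of -0.061. None passed, none was higher and 5, or 19.2%, were lower at an unadjusted p under 0.05 (limma), where 8.06% of all genes were lower. Ggcx, the carboxylase that completes the vitamin K-dependent factors, was measured at 10.93, 11.13, 11.08 and 10.82 in the knockout mice and at 11.27, 11.31, 11.30 and 11.40 in the wild-type mice. Every knockout liver was below every wild-type liver, with a difference of -0.33 ± 0.086 (adjusted p = 0.0921). Serpina10, an inhibitor of activated factor X, stood at -0.29 ± 0.082 (adjusted p = 0.119), also without overlap.

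The remaining cell type markers had no member past the threshold either (limma). Of 10 endothelial markers 8 were positive, with 2 at an unadjusted p under 0.05, Lyve1 at 0.37 ± 0.14 and Clec4g at 0.17 ± 0.078, and summed linear values were 10955 to 11940 in the knockout group and 9600 to 10993 in the controls. All 9 measured lymphocyte markers were positive, 3 of them at an unadjusted p under 0.05. Over all genes 12676 of 22180 were positive and 8.61% were higher at that p. The lymphocyte sums were 689 to 797 in the knockout group and 601 to 643 in the controls, Cd3e standing at 0.37 ± 0.12 and Ms4a1 at 0.28 ± 0.12. Mean values of the lymphocyte markers were low, from 4.64 to 7.10 with a median of 5.95, beside array medians of 5.79 to 5.89. Of 10 stellate cell markers 3 were positive and none was at an unadjusted p under 0.05, with Reln at -0.18 ± 0.089 and Col3a1 at -0.18 ± 0.11. Of 6 measured cholangiocyte markers 4 were positive and 1 was at an unadjusted p under 0.05, Sox9 at -0.29 ± 0.13, with Muc1 at 0.10 ± 0.072. Tdo2 and Tat were the hepatocyte markers of smallest p, at -0.20 ± 0.079 and 0.10 ± 0.087. The RMA values have no true 0, so no marker could be scored as absent. The part of cell composition in the differences of the plasma protein genes was not tested.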

How the data were processed

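The deposited log2 values cover 39137 probe sets and were made by the authors by RMA in oligo 1.24, per the submitters' processing notes; the log2 scale was inferred from their range of 1.28 to 13.88. RMA equalises the arrays' distributions and compresses large differences. For the chip definition and the build nothing was given in the sources used here. Names came from the platform annotation: 23521 probe sets had 1 symbol, 1814 several and 13802 none. Per gene the probe set of highest mean was taken. Groups come from the titles. Differences were tested with limma 3.58.1 in R 4.3.3 (lmFit, eBayes, two-sided), adjusted by Benjamini-Hochberg over all 22180 genes, and the step was tested on simulated data. Errors of differences are limma standard errors. Nothing states that the mice were from separate litters. Precision is limited by the 4 arrays per group.

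The genes and lists were chosen with earlier results of these data known. Described in full per class were any gene past the threshold, the 4 of smallest p, the 2 of largest difference and the 2 of largest SD among knockout mice; other genes are given by their difference. From each further list come the members past the threshold and the 2 of smallest p. The 2 promoter motifs were chosen after the array values were seen. Alternatives changed the variance model, normalization, centring, a filter on dim genes, the choice of probe sets, array weights, the minimum fold, a Y-linked covariate, the mouse number as a block, the control class and the arrays used. Tables were read with Python 3.11.15 and pandas 2.3.3, and figures drawn with matplotlib 3.10.9.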

Additional observations from a re-analysis of the deposited data

Results flagged for a closer look

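In 3 of 80 groups of 4 arrays (40 genes, 2 groups each) a single array stood apart from the others by more than 0.829 of the group's range, and chance gives about 1 in 20 groups. All 3 were wild-type mice. Fga was at 13.05 in wild-type mouse 3 and at 12.9 to 12.92 in the others. Mbl2 was at 10.38 in wild-type mouse 2 and at 10.27 to 10.28 in the others. Itih3 was at 12.24 in wild-type mouse 1 and at 12.36 to 12.38 in the others.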

How the results depend on the processing

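Over 21 alternative settings, the 40 genes had 33 to 36 differences below 0, and 34 of the 40 kept their direction in each setting. None passed in the main comparison and 1, Lcn2, passed under a trended robust variance (limma adjusted p = 0.0482), with a filter on genes below the median level (0.0424) and with array weights (0.0404). With each array left out in turn none passed, and the adjusted p of Lcn2 was 0.0565 to 0.179. Arrays share only a mouse number: same-numbered arrays correlated in their deviations at 0.27 for number 1 and at -0.10 to 0.031 for the others, and of the knockout arrays mouse 1 alone correlated best with its own number. With a replicate block by mouse number none passed, 34 were below 0, and Lcn2 had an adjusted p of 0.098. The median of the clotting genes, -0.076, was -0.046 after quantile normalization was applied again and -0.11 with arrays centred on their medians. Saa2 changed sign without both arrays of mouse 1 (0.20) and ranged from -0.53 to 0.28 with single arrays left out; Orm2 ranged from -0.18 to 0.040. With single arrays left out the class medians were -0.090 to -0.048 (without wild-type mouse 2) for acute phase, -0.20 to -0.090 for complement and -0.086 to -0.055 for clotting genes. The cause of these shifts was not tested. The deposited values carry no call against background, so dim probe sets could not be judged against it.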
